A study of Mus musculus with 6 samples.

Results

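Th17 lineage transcription factors are the DNA-binding proteins that turn an activated CD4 T cell into a cell that secretes interleukin 17. The set described here holds 9 genes, Batf, Irf4, Stat3, Rora, Maf, Ahr, Bhlhe40, Fosl2 and Runx1, picked by name from a table of 31017 genes. All 9 were in the table, and all 9 were among the 14268 genes that passed a filter on low counts. RNA was sequenced from mouse Th17 cells made in culture, in 3 wild-type control libraries and 3 libraries from RTF1-deficient (KO) cells. RTF1 travels with RNA polymerase II and is needed for placing ubiquitin on histone H2B. The labels give the genotypes only as WT and KO. The strain, the age of the mice, the culture conditions and the way in which RTF1 was removed were not given in the sources used here, nor whether the libraries of a group came from separate animals, so p-values measure only the spread between these libraries.

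In a differentiating Th17 cell, BATF and IRF4 bind together at composite DNA sites and open chromatin, and are called pioneer factors for that reason. STAT3, switched on by interleukin 6 and related cytokines, binds many of the same regions and induces further factors, among them the nuclear receptor RORA. MAF, AHR, BHLHE40, FOSL2 and RUNX1 then adjust which cytokine and receptor genes are expressed.

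The libraries held 16489813 to 51271226 counts. Rtf1 itself gave 88.3 to 94.0 CPM (counts relative to the library total, with TMM factors) in control and 26.2 to 45.3 CPM in KO, so the KO libraries kept Rtf1 transcripts. Replicate 3 of both groups held 11376 and 5147 counts over 4 Y-linked genes, against 1 to 3 in the other libraries. Each factor's fold change is therefore also given without those libraries. T cell markers were abundant, with 8 genes summing to 2437 to 2922 CPM in control and 2020 to 2249 CPM in KO. Of these, 2 were called higher and 4 lower, against 23.2% and 22.9% of all tested genes. Cd4 went from 486 to 254 CPM. Their part in the results was not tested. Marker lists of B cells, myeloid cells, erythroid cells and fibroblasts summed to at most 3.80 CPM in any library. The CD8 and NK list summed to 6.93 to 10.5 CPM in control and 6.49 to 11.8 CPM in KO, with Ncr1 and Klrb1c at 0 everywhere. Of 3 tested genes of this list, 1 was called higher and 0 lower, against 23.2% and 22.9% of all tested genes. The called gene was Eomes, at 0.0991 CPM in control and 1.55 CPM in KO (log2 fold change 3.78, edgeR adjusted p = 0.000946). Cd8b1 (−0.31) and Cd8a (0.68) were not called. The myeloid list was at 0.784 to 0.790 CPM in control and 2.003 to 3.80 CPM in KO. In bulk RNA, fewer cells that express a gene and less RNA per cell cannot be told apart. CPM are relative to the rest of the library, so a change in the total RNA per cell would not be seen.

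Irf4 and Bhlhe40 fell in KO, and 0 of the 9 factors rose. A gene was called when its adjusted p-value from edgeR's quasi-likelihood test, fitted on the whole table, was under 0.05. By this rule 2 of the 9 were called, both lower. Over all tested genes 46.1% were called, 22.9% lower and 23.2% higher. Among the 3155 genes at least as abundant as the least abundant factor 49.2% were called, 24.5% lower. The share of the factors called was under this background and the share called lower close to it. The median log2 fold change was −0.25 over the 9 factors and 0.01 over all tested genes. Taken without sign, the median change over all tested genes was 0.53 on the log2 scale, and 6 of the 9 factors lay closer to 0 than that, namely Ahr, Batf, Stat3, Fosl2, Maf and Runx1. In 4 of the 9 the KO and control libraries did not overlap, 3 with KO lower (Irf4, Bhlhe40 and Batf) and 1 with KO higher (Stat3). Over all tested genes this held for 57.9%, for 28% with KO lower and for 29.9% with KO higher.

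**Figure D1:**
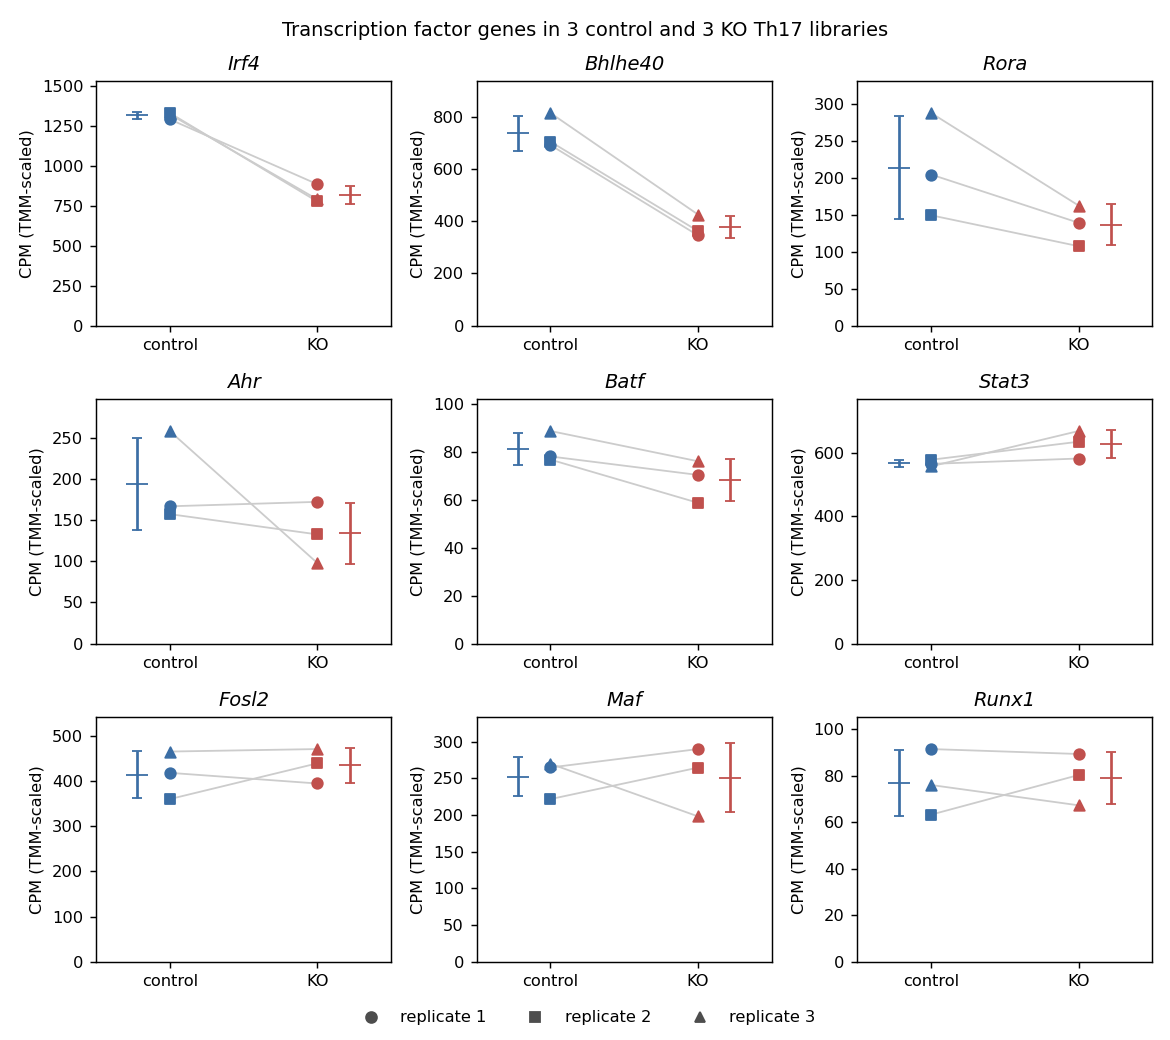
CPM of each factor gene in every library (y axis, linear from 0), control in blue and KO in red, with a marker shape for each replicate number and grey lines joining equal numbers. The bars beside the points are the mean and SD of 3 libraries. The KO libraries of Irf4 and Bhlhe40 sit well below all control libraries, while those of Maf, Fosl2 and Runx1 mix with them.

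To show where the 2 kinds of outcome start in the genome, the bases before an annotated transcription start are printed for 3 factors. Irf4 is shown as a factor that fell and Stat3 as a factor that was not called. Rora was called in some fits and not in others. Each of the 3 genes has several annotated transcripts, and which start these cells used was not tested. The sequences are from RefSeq (build GRCm38.p6), 250 bases each, 5′ to 3′ along the gene. Capitals mark matches, on either strand, to 8 motifs: the GC box GGGCGG, the TATA box TATAAA, the STAT site TTCNNNGAA, the AP-1 site TGANTCA, the RUNX site TGTGGT, the AHR core GCGTG, the E-box CACGTG and the ROR half-site AGGTCA.
Irf4 promoter, chr13:30748983-30749232, plus strand: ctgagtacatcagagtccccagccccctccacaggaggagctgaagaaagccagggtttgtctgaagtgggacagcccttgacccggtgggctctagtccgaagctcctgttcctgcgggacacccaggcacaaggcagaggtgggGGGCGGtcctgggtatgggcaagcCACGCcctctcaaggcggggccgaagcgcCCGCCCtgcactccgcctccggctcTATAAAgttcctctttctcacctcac
Rora promoter, chr9:68653536-68653785, plus strand: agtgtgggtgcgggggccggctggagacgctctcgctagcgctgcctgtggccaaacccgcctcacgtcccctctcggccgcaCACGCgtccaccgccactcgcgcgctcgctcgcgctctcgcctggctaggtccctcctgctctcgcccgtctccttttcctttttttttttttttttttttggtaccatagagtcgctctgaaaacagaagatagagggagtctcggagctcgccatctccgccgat
Stat3 promoter, chr11:100939541-100939790, minus strand: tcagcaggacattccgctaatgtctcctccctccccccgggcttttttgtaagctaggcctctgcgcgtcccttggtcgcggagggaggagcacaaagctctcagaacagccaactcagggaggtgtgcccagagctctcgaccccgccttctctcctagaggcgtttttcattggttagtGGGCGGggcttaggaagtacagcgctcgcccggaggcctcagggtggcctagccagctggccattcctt
The Irf4 stretch held 2 GC boxes, first bases 104 and 51 before the RefSeq start, an AHR core 80 before it, and a TATA box 26 before it. In GENCODE M21 the gene begins at 30749226, so the last bases of this stretch lie inside it by that annotation. Of 32851 promoters of this length, 32.7% held a GC box, 12.4% a TATA box and 28.2% an AHR core. The Rora stretch held 1 AHR core, 167 before the start, and the Stat3 stretch 1 GC box, 69 before it. None of the matches overlapped another. The 3 stretches were 63.6%, 61.2% and 60.8% G and C, against a median of 52.4%. Of factors with an entry that are not printed, Fosl2 was at 64.4%, Batf at 46.4% and the 2 Runx1 starts at 45.6% and 67.6%. A GC box was also found in Fosl2 and Batf, and an AHR core at 1 Runx1 start. The TATA box was found in none of the other factors' promoters among the 6 factors with an entry. Bhlhe40, the other factor that fell, had no entry, nor had Maf and Ahr, so their promoters were not searched. A match is a string of letters and was not tested for binding.

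Irf4 encodes the interferon regulatory factor that acts downstream of the T cell receptor and pairs with BATF (chromosome 13, 30749226 to 30766976, GRCm38, GENCODE M21). In control, replicates 1, 2 and 3 gave 1293, 1333 and 1325 CPM. The KO libraries of the same numbers gave 886, 778 and 791 CPM. The control libraries lay within 1.03-fold of each other, and every KO library was below all of them. The means were 1317 ± 21.1 and 818 ± 59.2 CPM (SD, n = 3), and the log2 fold change was −0.69 (SE 0.12, 95% interval −0.96 to −0.41, edgeR adjusted p = 0.00231). In KO 62.1% of the control level in CPM was left. The fall was seen in 3 of 3 pairs of equal replicate number, by 0.54, 0.78 and 0.74 on the log2 scale. Without the libraries numbered 3 it was −0.66 (edgeR adjusted p = 0.0101). Irf4 was still the most abundant of the factors in KO.

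Bhlhe40 encodes a basic helix-loop-helix repressor induced by T cell activation and known for holding back interleukin 10 in helper T cells (chromosome 6, 108660629 to 108666925). Its control libraries held 692, 705 and 815 CPM. Its KO libraries held 346, 362 and 426 CPM. Replicate 3 was the highest of both groups, and the groups did not overlap. The mean went from 737 ± 67.5 to 378 ± 42.2 CPM (SD, n = 3), and the log2 fold change was −0.96 (SE 0.13, 95% interval −1.27 to −0.66, edgeR adjusted p = 0.000878). This was the lowest of the 9 fold changes, and 12.8% of all tested genes had a lower one. Within pairs of equal number the differences were −1.001, −0.96 and −0.94, so the pairs nearly coincided. Without the libraries numbered 3 the fold change was −0.98 (edgeR adjusted p = 0.000581). An antisense gene, 0610040F04Rik, covers 2.51% of the exonic bases of Bhlhe40. It gave 0.304 to 1.98 CPM, and the strand setting of the counting is not known.

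Rora encodes a nuclear receptor of the ROR family that drives interleukin 17 genes (chromosome 9, 68653786 to 69388246). In the order of their numbers, the control libraries gave 205, 149 and 288 CPM and the KO libraries 139, 108 and 163 CPM. The groups overlapped, since KO replicate 3 was above control replicate 2. Each KO library was nevertheless below the control library of its own number, by 0.56, 0.47 and 0.83 on the log2 scale. The means of 214 ± 69.8 and 136 ± 27.6 CPM (SD, n = 3) gave a log2 fold change of −0.65 (SE 0.24, 95% interval −1.19 to −0.11) that was not called (edgeR adjusted p = 0.0515). With the replicate number as a block it was −0.62 and was called (edgeR adjusted p = 0.0014), in a fit that called 53.5% of all tested genes. It was called in 7 of 14 alternative fits, among them that without the libraries numbered 3 (−0.52, edgeR adjusted p = 0.0361). Without control replicate 3, the highest library, it was −0.42 and not called.

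Ahr encodes the aryl hydrocarbon receptor, which senses small aromatic ligands and supports interleukin 22 expression (chromosome 12, 35497974 to 35535038). The control libraries held 167, 157 and 258 CPM and the KO libraries 172, 133 and 97.9 CPM. KO replicate 1 was above 2 of the control libraries, and control replicate 3 stood far above the other two. The means were 194 ± 55.7 and 134 ± 37.1 CPM (SD, n = 3; log2 fold change −0.53, 95% interval −1.08 to 0.02, edgeR adjusted p = 0.101). The differences in pairs 1, 2 and 3 were 0.05, −0.25 and −1.40. Most of the mean difference thus came from the libraries numbered 3, and without them the fold change was −0.09 (edgeR adjusted p = 0.66). Without KO replicate 1 it was −0.75 and was called (edgeR adjusted p = 0.0382), and without control replicate 3 it was −0.33.

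Batf, the AP-1 family pioneer factor that partners IRF4 (chromosome 12, 85686669 to 85709087), held 78.1, 76.7 and 88.7 CPM in control and 70.4, 58.7 and 76.1 CPM in KO. The highest KO library was just under the lowest control library, so the groups did not overlap. The log2 fold change was −0.25 (95% interval −0.54 to 0.04) and was not called (edgeR adjusted p = 0.143). Batf was called in 0 of 14 alternative fits. It lay at −0.15 without KO replicate 2, the lowest library, and at −0.26 without the libraries numbered 3 (edgeR adjusted p = 0.139).

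Stat3, the transducer of interleukin 6 signals (chromosome 11, 100885098 to 100939540), held 565, 578 and 557 CPM in control and 582, 634 and 668 CPM in KO. Here every KO library was above every control library. The log2 fold change of 0.15 was small (95% interval −0.11 to 0.41, edgeR adjusted p = 0.316), and the spread of the control libraries was only 1.83% of their mean. Stat3 was called in 0 of 14 alternative fits, with log2 fold changes of 0.08 to 0.24 (0.09 without the libraries numbered 3). Messenger RNA does not report the phosphorylation that activates STAT3.

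Maf, Fosl2 and Runx1 had fold changes near 0, and their groups overlapped. Maf, a basic leucine zipper activator of Il10 and Il21 (chromosome 8, 115682942 to 115707794), held 265, 222 and 270 CPM in control and 290, 264 and 198 CPM in KO. Its log2 fold change was −0.01 (95% interval −0.37 to 0.36, edgeR adjusted p = 0.977), and the direction changed when libraries were scaled by their size alone (0.0801). The KO library numbered 3 was the lowest and the other KO libraries were close to or above control, so that without the libraries numbered 3 the value was 0.19 (edgeR adjusted p = 0.335).

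Fosl2, an AP-1 factor that restrains parts of the Th17 program (chromosome 5, 32135801 to 32157842), held 418, 360 and 465 CPM in control and 394, 439 and 471 CPM in KO (log2 fold change 0.07, 95% interval −0.24 to 0.38, edgeR adjusted p = 0.704). Its sign was reversed, at −0.04, without control replicate 2. Runx1, a runt domain factor needed from thymic development onward (chromosome 16, 92601466 to 92826149), held 91.4, 63.2 and 75.9 CPM in control and 89.3, 80.2 and 67.2 CPM in KO (log2 fold change 0.04, 95% interval −0.33 to 0.41, edgeR adjusted p = 0.853). Its sign was reversed when control replicate 2, control replicate 3 or KO replicate 1 was omitted. Without the libraries numbered 3, Fosl2 was at 0.10 and Runx1 at 0.14, and neither was called. For Maf, Fosl2 and Runx1 the intervals hold both a small rise and a small fall, and none reaches below −0.37.

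**Figure D2:**
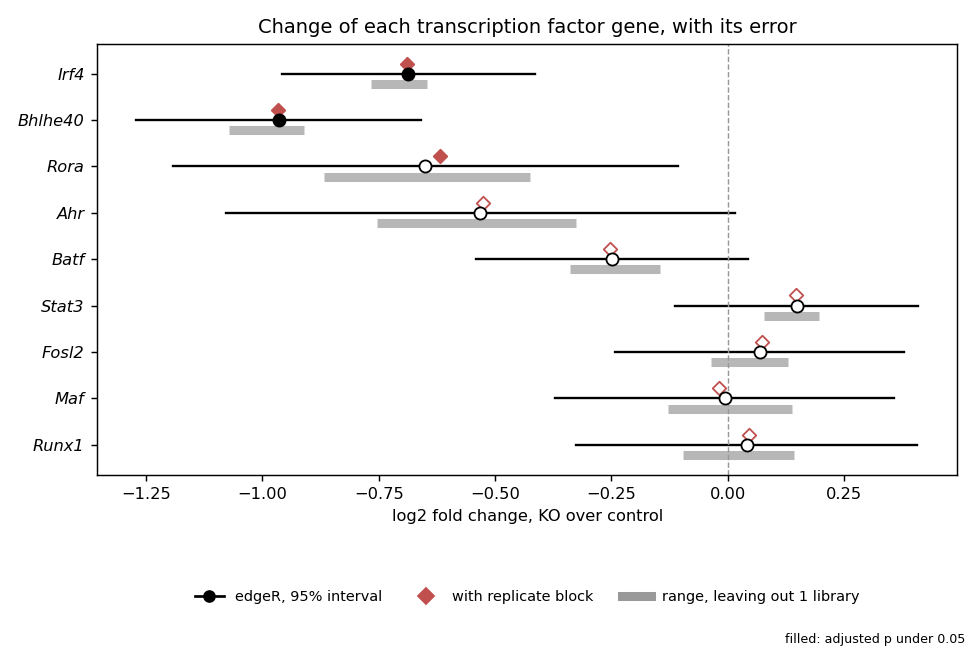
Log2 fold change of KO over control (x axis) for each factor, with its 95% interval (black line), the value with the replicate number as a block (red diamond) and the range over 6 fits that each left out 1 library (grey bar). Filled symbols have an adjusted p under 0.05. Irf4 and Bhlhe40 are filled in both fits and Rora only with the block.

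Levels of different genes were compared as CPM per kilobase of exon. In control Irf4 led at 269 ± 4.32, followed by Bhlhe40 at 157 ± 14.3, Stat3 at 59.5 ± 1.09 and Batf at 57.6 ± 4.64 CPM per kilobase (SD, n = 3). Fosl2 stood at 42.8 ± 5.45, Ahr at 31.5 ± 9.05, Maf at 30.6 ± 3.21, Rora at 16.4 ± 5.34 and Runx1 at 6.39 ± 1.17. The libraries of neighbours in this order overlapped for Stat3 and Batf, for Fosl2 and Ahr, and for Ahr and Maf, and were separate elsewhere.

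The same order held in KO except that Maf, at 30.4 ± 5.75, stood above Ahr, at 21.8 ± 6.03 CPM per kilobase, with overlapping libraries. With the length of the longest transcript in place of all exons, Runx1 at 13.5 also stood above Rora at 12.5 in KO. Irf4 at 167 ± 12.1 and Bhlhe40 at 80.2 ± 8.95 were still the top 2, the latter now close to Stat3 at 65.9 ± 4.58. These libraries did not overlap. Batf at 48.5 ± 6.26 and Fosl2 at 44.9 ± 3.96 overlapped in KO, which they did not in control. Irf4 ranked above 99.4% of all tested genes by mean CPM, and Batf, the gene ranked lowest of the 9, above 77.9%. Every factor was therefore measured on 1284 counts or more in each library.

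**Figure D3:**
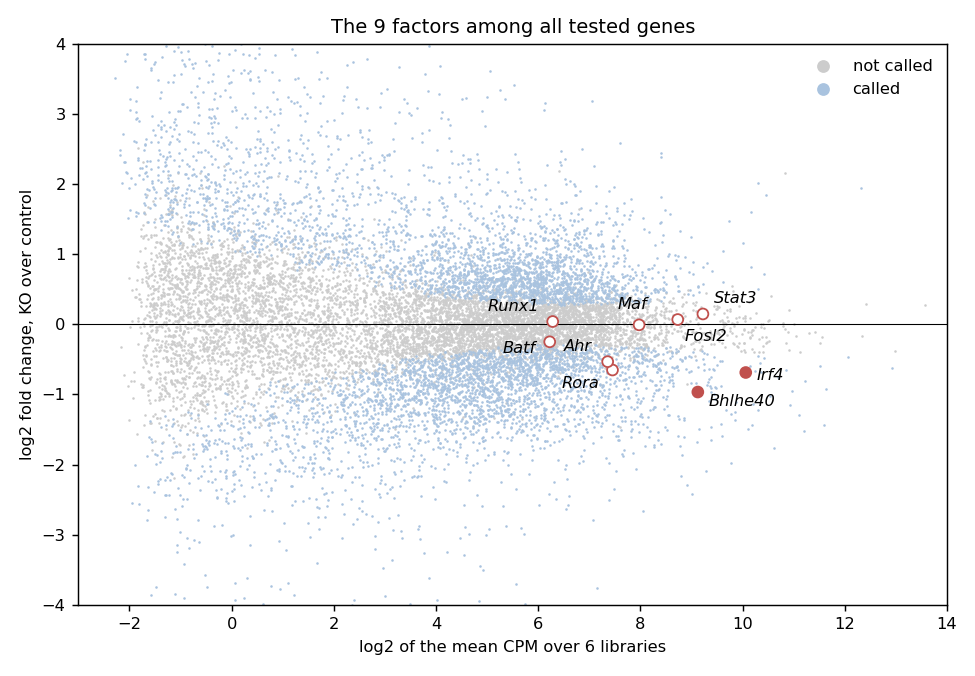
Mean CPM over the 6 libraries (x axis, log2) against the log2 fold change of KO over control (y axis) for the tested genes, with called genes in light blue, others in grey and the 9 factors in red (filled where called). All 9 factors lie in the abundant part of the plot, with fold changes inside the bulk of the genes. The 161 genes beyond the axes are not drawn.

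Ratios of 2 genes within a library do not depend on how libraries are scaled. For 5 pairs of known partners or neighbours in the network, the log2 ratio of counts was compared between the groups. The exact permutation test of 3 against 3 libraries cannot give a p under 0.1. The ratio of Irf4 to Batf was 4.05, 4.12 and 3.90 in control and 3.66, 3.73 and 3.38 in KO. It was lower in all KO libraries, by 0.44 on average (exact permutation test, two-sided, p = 0.1, 0.167 adjusted over 5 pairs).

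Rora to Stat3 went from −1.46 ± 0.50 to −2.22 ± 0.29 and Ahr to its dimer partner Arnt from 1.38 ± 0.33 to 0.62 ± 0.41 (SD, n = 3; exact permutation test, two-sided, p = 0.1 for each, 0.167 adjusted). In both the KO libraries lay below all control libraries. Batf to Junb, a JUN partner of BATF, was −2.94 ± 0.32 and −2.99 ± 0.19 (exact permutation p = 1). Runx1 to Cbfb, the non-DNA-binding subunit of RUNX complexes, was −0.88 ± 0.42 and −0.97 ± 0.12 (exact permutation p = 0.8). The groups overlapped for the last 2 pairs. For single genes, the groups did not overlap in 57.9% of all tested genes. The share over other pairs of genes was not computed, so the separation is not particular to these pairs as far as was tested.

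**Figure D4:**
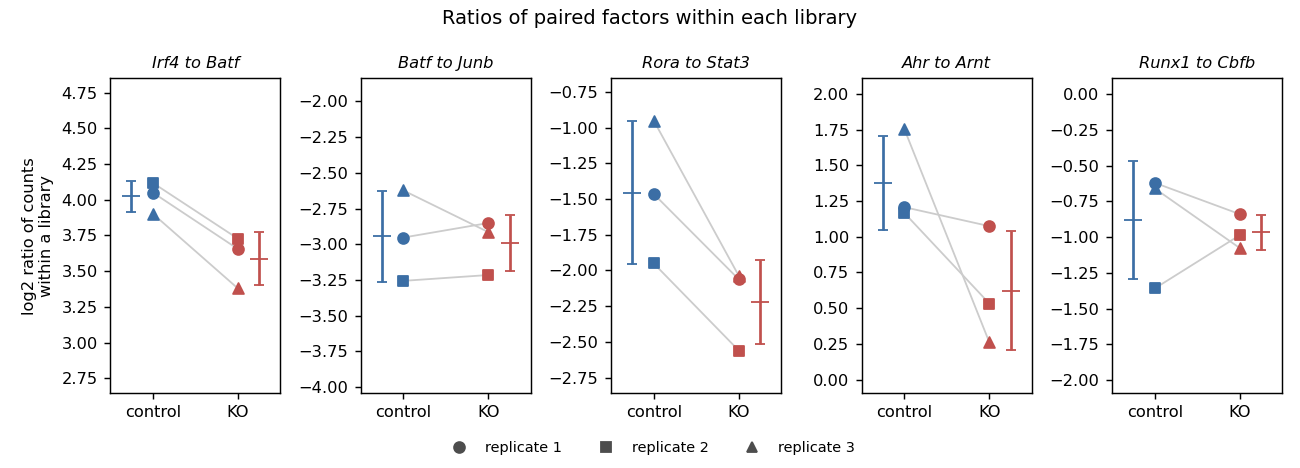
Log2 ratio of counts within each library (y axis, each panel spanning the same range) for 5 pairs of genes, control in blue and KO in red, with a marker shape for each replicate number. The bars are the mean and SD of 3 libraries. Irf4 to Batf, Rora to Stat3 and Ahr to Arnt are lower in all KO libraries than in all control libraries. Among single tested genes, 57.9% separate the groups in this way in either direction.

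By the root mean square difference of centred log2 CPM over the 6 libraries, the genes most like Irf4 among 9806 with at least 5 CPM were Ibtk (0.026), Snx27 (0.030) and Hyou1 (0.049), against a median of 0.41. Ibtk is named as an inhibitor of Bruton tyrosine kinase, Snx27 sorts endosomal cargo and Hyou1 is a chaperone of the endoplasmic reticulum. Among those most like Bhlhe40 were Evl (0.065), an actin regulator, and Arhgef18 (0.073), a guanine nucleotide exchange factor, against a median of 0.53.

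Relatives and dimer partners of the factors were called higher more often than lower. Of 25 tested genes in this list of 27, 10 were called higher and 1 lower, with a median log2 fold change of 0.35. Over all tested genes 23.2% were called higher and 22.9% lower. With the replicate block 13 of the list were higher and 4 lower, against 27% and 26.4% of all tested genes. Irf1, an interferon-induced relative of Irf4, rose from 34.5 to 197 CPM (log2 fold change 2.51, edgeR adjusted p = 7.86e-05). Jun rose from 51.3 to 145 CPM (1.496, adjusted p = 0.000119) and Fos from 7.40 to 35.6 CPM (2.28, adjusted p = 0.000178). Both are AP-1 subunits, and Junb, Jund and Fosl1 were not called. Batf3, the paralog of Batf, fell from 34.4 to 11.8 CPM (−1.56, adjusted p = 0.00891).

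Batf2, another paralog, had 0 counts in every control library and 1.18 to 2.49 CPM in KO, at least 53.0-fold higher when set against 3 counts over the control group. Mafk, a small MAF protein, rose from 25.5 to 58.8 CPM (log2 fold change 1.21, edgeR adjusted p = 0.0002). Runx2 rose from 12.6 to 21.0 CPM (0.75, adjusted p = 0.0135), while Runx3 (0.05) and Cbfb (0.12) were not called. Bhlhe41, the paralog of Bhlhe40, rose from 0.426 to 1.96 CPM, a call that 5 of 6 fits with 1 library left out lost.

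Of 11 other factors that promote the Th17 state, 3 were called higher and 3 lower (median log2 fold change −0.03). These shares were close to those over all tested genes, 23.2% higher and 22.9% lower. Satb1, a chromatin organizer, fell from 1629 to 581 CPM (−1.49, edgeR adjusted p = 0.000258), and Hif1a, the hypoxia-inducible factor, from 950 to 455 CPM (−1.06, adjusted p = 0.00197). The NF-kB subunits Rel (0.53, adjusted p = 0.00985) and Rela (0.52, adjusted p = 0.0061) and the nuclear IkB protein Nfkbiz (0.74, adjusted p = 0.0104) rose. The call of Crem (−0.47, adjusted p = 0.0271) was lost without KO replicate 1, without KO replicate 3 and when libraries were scaled by size alone.

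Among 13 genes that restrain Th17 differentiation or direct other fates, 6 were higher and 4 lower (median 0.47), against 23.2% and 22.9% of all tested genes. Bcl6, the factor of follicular helper T cells, rose from 8.23 to 42.2 CPM (2.36, edgeR adjusted p = 6.78e-05), and Socs3, which dampens STAT3 signalling, from 85.7 to 215 CPM (1.33, adjusted p = 0.000395). Tbx21, the Th1 factor, rose from 3.42 to 23.0 CPM (2.74, adjusted p = 0.00118). Ets1 fell from 914 to 491 CPM (−0.90, adjusted p = 0.00526) and Gfi1, a zinc finger repressor, from 38.6 to 14.7 CPM (−1.39, adjusted p = 0.00151). The call of Gata3, the Th2 factor (−1.60, adjusted p = 0.029), was lost in 3 and that of Foxp3, the regulatory T cell factor (1.21, adjusted p = 0.0244), in 4 of 6 fits that each omitted 1 library.

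Most of the standard target genes of AHR rose, while Ahr itself was not called. Of 5 such genes 4 were called higher and 0 lower, with a median log2 fold change of 1.18, against 23.2% higher over all tested genes. Cyp1b1, a cytochrome P450 enzyme, held 15.02, 20.5 and 14.5 CPM in control and 61.5, 45.6 and 43.97 CPM in KO (1.59, edgeR adjusted p = 0.000499). Cyp1a1, its relative, held 2.37, 4.38 and 5.94 CPM in control and 12.8, 10.5 and 11.6 CPM in KO (1.43, adjusted p = 0.00544). Ahrr, the repressor that AHR induces against itself, held 11.98, 8.57 and 11.5 CPM in control and 23.4, 24.2 and 24.5 CPM in KO (1.18, adjusted p = 0.000914).

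For all 5 AHR target genes the KO libraries lay above all control libraries, which held for 29.9% of all tested genes. The calls of Cyp1b1, Cyp1a1 and Ahrr held in all 6 fits that each omitted 1 library. The call of Tiparp (0.37, edgeR adjusted p = 0.0498) was lost in 5 of those 6, and Nqo1 was not called (0.69, adjusted p = 0.12). Of 5 target genes of STAT3, Socs3 and Fos rose, and Bcl3, Pim1 and Junb were not called (median −0.09). The share called higher over all tested genes was 23.2%, and 46.1% were called in either direction. Both sets of targets also respond to other factors.

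Among Th17 cytokine and receptor genes, more were called lower than higher in KO. Of 11, 6 were called lower and 2 higher, with a median log2 fold change of −1.15, against 22.9% lower and 23.2% higher over all tested genes. Counted in both directions, 5 were called without control replicate 2, KO replicate 2 or KO replicate 3. Omitting each library in turn lost the call of Il17f in 3, Ccr6 in 4 and Il23r in 2 of 6 fits. Those of Il17a, Il21 and Il10 held in all 6. Of the 2 called higher, Il1r1 was lost in 4 of these fits and Il6st in 0. Il10, which MAF activates and BHLHE40 restrains, went from 146, 127 and 99.7 CPM in control to 27.0, 20.5 and 22.3 CPM in KO (−2.42, edgeR adjusted p = 7.11e-05). Il21 went from 795, 727 and 650 CPM to 219, 124 and 143 CPM (−2.16, adjusted p = 0.000236). Il17a went from 348, 306 and 222 CPM to 161, 40.4 and 77.4 CPM (−1.65, adjusted p = 0.0125). Il6st, the shared signalling chain of the interleukin 6 receptor, rose from 75.4 to 203 CPM (1.43, adjusted p = 0.000104), whereas Il6ra, its ligand-binding chain, was not called (−0.19, adjusted p = 0.414).

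**Figure D5:**
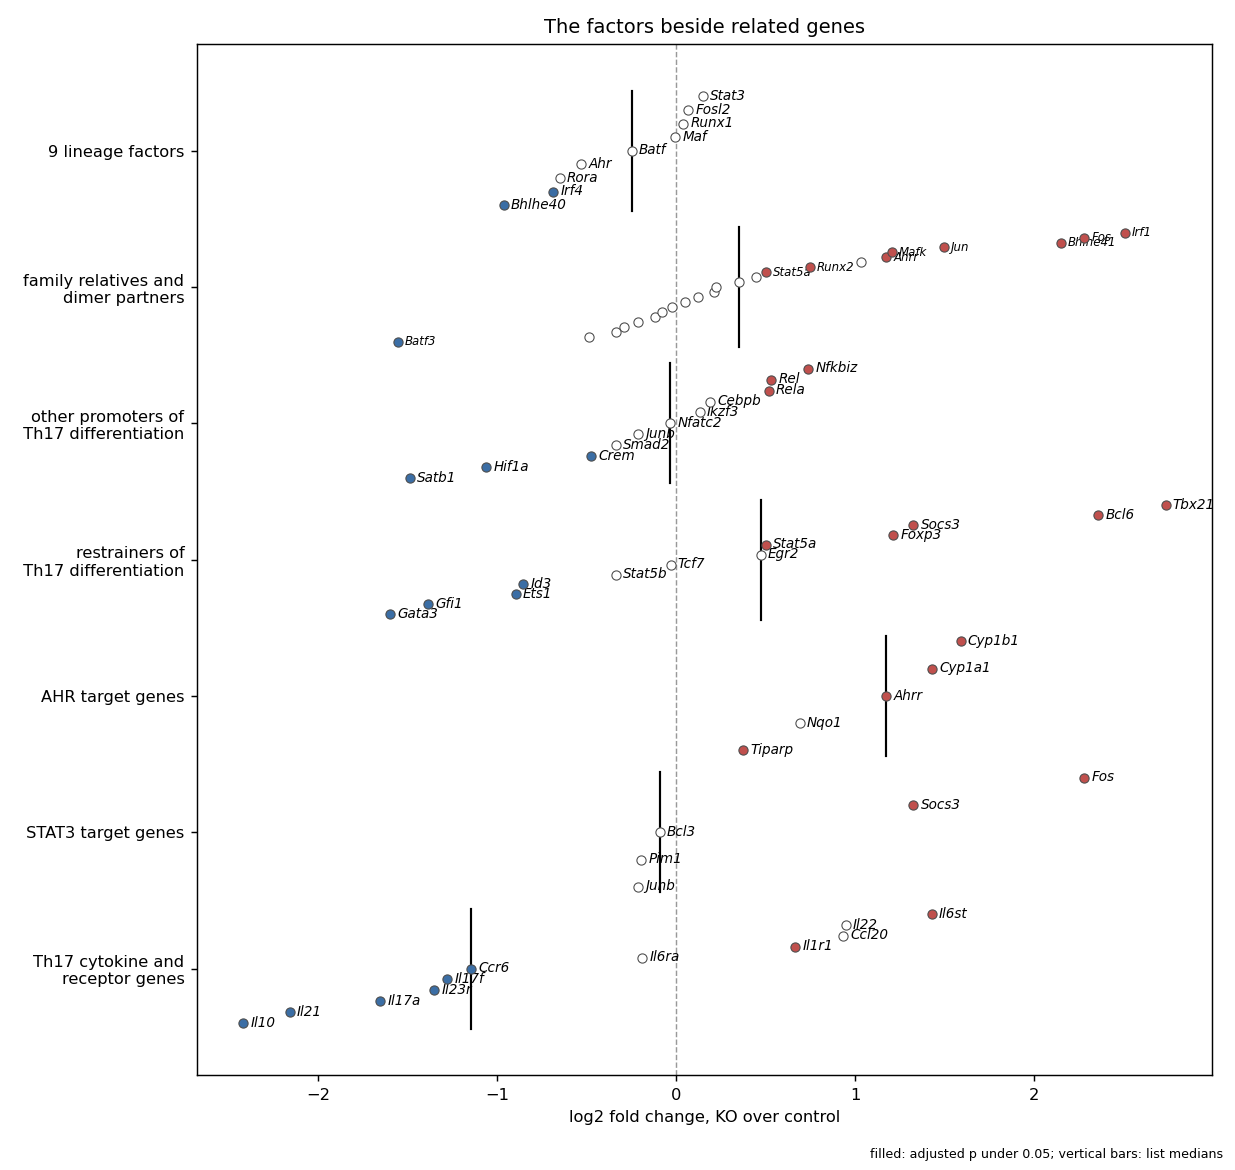
Log2 fold change of KO over control (x axis) for the 9 factors and 6 lists of related genes, with each list's median as a vertical bar. Filled points have an adjusted p under 0.05 (red higher, blue lower), and only called genes are named in the list of relatives. The factors lie between −0.96 and 0.15, a narrower span than that of each list, and not every list member is drawn (Batf2, with 0 counts in control, is left out).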

How the data were processed

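The authors deposited whole-number counts per gene symbol for 6 libraries. The submitters' processing notes name STAR, featureCounts, DESeq2 and the build mm10, with no version or role, and the annotation and strand setting were not given in the sources used here. Columns were matched to samples by description and groups taken from titles, and 0 columns lacked a sample. From these counts CPM were computed with TMM factors, and KO was compared with control by edgeR 4.0.16 in R 4.3.3 (quasi-likelihood test, filterByExpr by group, no covariate, Benjamini-Hochberg adjustment over 14268 genes). The scripts were tested on simulated data. The members, gene lists and tests were chosen with earlier results of these data known. Named genes are the 9 factors, Rtf1, genes of the lists, and the 3 genes nearest to each called factor among those with a mean of at least 5 CPM. Values of some list genes and of 1 nearest gene are not reported here.

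Libraries of equal replicate number deviated together from their group means, with correlations across genes of 0.27, 0.13 and 0.38. Control replicate 2 matched KO replicate 1 better (0.204) than its own number. Deviations within a group sum to 0, so these correlations are not independent. The check therefore does not settle whether the numbers mark pairs, and the block served only as an alternative. What the numbers mark is not in the labels. Alternatives were other scalings, filters, DESeq2 1.42.0, the replicate block, leaving out each library, and the libraries numbered 1 and 2 alone. Exon lengths and coordinates are from GENCODE M21 (GRCm38). At most 5.34% of a factor's exonic bases overlapped another gene, and at most 4.64% of its 50-base stretches (both Maf) occurred in transcripts of another gene.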

Additional observations from a re-analysis of the deposited data

How the results depend on the processing

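Irf4 and Bhlhe40 stayed lower and called in each of 14 alternatives (−0.77 to −0.60 and −1.07 to −0.88), and the number of factors called was 2 or 3. The replicate block changed 1 call among the 9 factors, that of Rora (−0.62, edgeR adjusted p = 0.0014). The sign of Maf turned with library size only (0.0801), with the libraries numbered 1 and 2 only (0.19) and without KO replicate 3 (0.14). Without control replicate 2 Fosl2 was at −0.0366. Runx1 was at −0.10, −0.02 and −0.06 without control replicate 2, control replicate 3 and KO replicate 1. The cause was not tested. With 1 library left out, Rora ran from −0.87 to −0.42, Ahr from −0.75 to −0.33, Batf from −0.34 to −0.15, Fosl2 from −0.0366 to 0.13, Maf from −0.13 to 0.14 and Runx1 from −0.10 to 0.14. The difference in ratio ran from −0.21 to 0.11 for Batf to Junb (0.06 without KO replicate 2), from −0.33 to 0.0419 for Runx1 to Cbfb (0.02 without control replicate 3), from −0.51 to −0.33 for Irf4 to Batf, from −1.01 to −0.51 for Rora to Stat3 and from −0.98 to −0.56 for Ahr to Arnt. With signs exchanged within the replicate block of 3 pairs, the smallest exact p is 0.25, which Irf4 to Batf, Rora to Stat3 and Ahr to Arnt reached. In alternatives chosen after seeing the data, the block called 17 of the relatives against 11, and leaving out 1 library called 5 to 8 of the cytokine and receptor genes against 8. Without the libraries numbered 3, 12 of the relatives, 6 of the promoting factors, 9 of the restraining genes, 4 AHR targets, 2 STAT3 targets and 8 of the cytokine and receptor genes were called, against 11, 6, 10, 4, 2 and 8. With the length of the longest transcript in place of all exons, control levels per kilobase were 277 for Irf4, 237 for Bhlhe40, 93.8 for Stat3, 85.4 for Batf, 63.4 for Fosl2, 39.6 for Maf and 13.1 for Runx1, and Maf then stood above Ahr, and in KO Runx1 above Rora. No molecular identifiers are mentioned, so reads need not be independent molecules. The spread of 3 libraries per group limits what can be called.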

Other observations

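The factor genes differ widely in length. Bhlhe40 spans 6.3 kb, Irf4 17.8, Fosl2 22.04, Batf 22.4, Maf 24.9, Ahr 37.1, Stat3 54.4, Runx1 225 and Rora 734 kb (GENCODE M21). The 2 genes that fell are the 2 shortest of the 9. Over all tested genes with a known span, 17.0% of 4265 genes under 10 kb were called lower and 23.3% higher, and of 1524 genes of at least 100 kb 33.1% were called lower and 14.4% higher. Among the 2 factor genes of at least 100 kb, Rora had a log2 fold change of −0.65 and Runx1 one of 0.04. A relation between length and change was not tested.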
